A study of Mus musculus with 17 samples.

Results

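MHCII+CD11c+ macrophages of the mouse synovium were compared with MHCII+CD11c- macrophages 8 h after immune complexes (IC) had been given into a vein. The members are all genes that passed a filter on low counts, 15272 of the 22859 genes in the table, each measured in the 2 MHCII+CD11c+ and the 3 MHCII+CD11c- libraries made after IC. Every group was labelled Fcgr2b-KO, a knockout of the gene of the inhibitory Fc gamma receptor, and no group was labelled wild-type. The study sorted 3 macrophage subsets from digested synovium, LYVE1+CX3CR1+, MHCII+CD11c- (label IAIE) and MHCII+CD11c+ (label CD11c), from control mice and from mice given IC, and bulk RNA-seq of 17 libraries followed. The control groups of both MHCII+ subsets had 3 libraries each and are used here as a second comparison that shares no library with the IC comparison. According to the methods of the study, mice were adults of both sexes and the IC were made of ovalbumin and rabbit antibodies to ovalbumin. The exact age and the number of mice behind each library of this experiment were not given in the sources used here, so p-values measure the spread between libraries.

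IC are antibodies bound to their antigen, and macrophages take them up through Fc gamma receptors, which send activating signals or, in the case of the product of Fcgr2b, an inhibitory signal. MHC class II molecules present peptides to CD4 T cells, and their genes are switched on by the coactivator CIITA acting at a conserved set of promoter boxes. CD11c, the integrin alpha X chain, is found on dendritic cells and on some macrophages, so a gate for MHC class II and CD11c can hold both. Long-lived tissue macrophages are known for scavenger receptors such as CD163 and for the transcription factor MAF, whereas conventional dendritic cells are known for FLT3, ZBTB46 and CCR7.

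Fcgr2b, deleted by label, still had 132 and 118 CPM in MHCII+CD11c+ and 159, 141 and 114 CPM in MHCII+CD11c- libraries (log2 fold change −0.15 ± 0.29, adjusted p = 0.930). A count per gene does not say which exons these reads cover, and with no wild-type library to set beside them the deletion could not be checked. The sort itself showed in the counts. The CD11c gene Itgax (chromosome 7, 128129547 to 128150657, plus strand, on GRCm38, in GENCODE M21 gene models), had 331 and 443 CPM in MHCII+CD11c+ and 8.65, 8.24 and 14.3 CPM in MHCII+CD11c- libraries. Because CD11c and MHC class II chose the cells, the levels of their genes are a check and not a result. Macrophage genes were read in every library of both subsets, with 1181 and 1127 against 2625, 2108 and 1958 CPM for Csf1r, the receptor of macrophage colony-stimulating factor, 404 and 359 against 844, 563 and 512 CPM for Adgre1 (F4/80) and 86.1 and 52.0 against 194, 187 and 212 CPM for Mertk, a receptor for apoptotic cells. The 5 libraries held 7045387 and 5736314 counts in MHCII+CD11c+ and 4712986, 4902776 and 3878535 counts in MHCII+CD11c- macrophages, so the MHCII+CD11c+ libraries were deeper. With every library drawn down to the same total, 636 genes were called in place of 616. Across log2 levels the pair of MHCII+CD11c+ libraries correlated at 0.965 and the MHCII+CD11c- libraries at 0.907 to 0.933.

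In all, 616 of 15272 genes (4.03%) differed between the subsets after IC, 349 higher (2.29%) and 267 lower (1.75%) in MHCII+CD11c+ macrophages. A gene is called here at an adjusted p under 0.05 in edgeR's quasi-likelihood test, with Benjamini-Hochberg adjustment over all genes kept. Counts of called members in the lists of genes below are to be read beside the 2.29% and 1.75% of all genes. Levels are given as CPM (counts per 1000000 after TMM scaling of the library totals) and differences as the fitted log2 fold change ± SE, positive where MHCII+CD11c+ was higher. The size of the called differences ranged from 0.58 to 10.56 log2 units with a median of 1.64, and 235 genes differed by more than 2 log2 units. Among the called genes, 615 had no overlap between the 2 and the 3 libraries, while over all genes the MHCII+CD11c+ libraries lay wholly above the others in 19.6% and wholly below in 17%. The exception was Cd33 (57.3 and 24.6 against 194, 135 and 55.6 CPM; adjusted p = 0.0479), named after its values were seen. Among left-out libraries, the count was moved most by those of MHCII+CD11c+ macrophages, to 349 genes without library 1 and 145 without library 2, where 1 library remained and was assumed to vary like the others, and it was 389 without MHCII+CD11c- library 3.

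Among genes higher in MHCII+CD11c+ macrophages, Gm2a, Lsp1 and Wnt11 had the smallest p. Gm2a (chromosome 11, 55098115 to 55113029, plus strand), which encodes the activator protein for breakdown of GM2 ganglioside in lysosomes, had 533 and 704 CPM in MHCII+CD11c+ and 134, 124 and 101 CPM in MHCII+CD11c- libraries (log2 fold change 2.37 ± 0.22, adjusted p = 1.14e-06). For Lsp1 (chromosome 7, 142460809 to 142494867, plus strand), an actin-binding protein of leukocytes, the levels were 880.1 and 1086 against 217, 174 and 128 CPM (log2 fold change 2.50 ± 0.23, adjusted p = 1.14e-06). Wnt11 (chromosome 7, 98835112 to 98855195, plus strand), a secreted Wnt ligand, had 140.3 and 242 against 6.21, 9.68 and 16.2 CPM (log2 fold change 4.17 ± 0.39, adjusted p = 2.22e-06). In each of these genes the lower MHCII+CD11c+ library exceeded the highest MHCII+CD11c- library by a wide margin. Cd24a (chromosome 10, 43578284 to 43584265, plus strand), a small glycoprotein anchored to the cell surface, had 136 and 188 against 3.77, 7.42 and 6.05 CPM (log2 fold change 4.81 ± 0.48, adjusted p = 7.34e-06). Jak2 (chromosome 19, 29251828 to 29313080, plus strand), a kinase of many cytokine receptors, had 240.5 and 302 against 77.2, 59.3 and 57.5 CPM (log2 fold change 2.07 ± 0.24, adjusted p = 1.91e-05). The Janus kinase target Pim1, a serine/threonine kinase, followed with 613 and 873 against 198, 259.6 and 241 CPM (log2 fold change 1.67 ± 0.20, adjusted p = 1.91e-05). Next came Glipr2 (180.0 and 217 against 19.3, 20.8 and 23.7 CPM), the calcium-binding protein gene S100a11 (261 and 288 against 60.5, 92.7 and 52.0 CPM), the vesicle protein gene Syngr2 (239.9 and 306 against 85.8, 71.1 and 54.8 CPM) and Rin3 (269 and 291 against 56.3, 78.9 and 72.6 CPM), an activator of the small GTPase RAB5. These 4 genes were higher by 3.22 ± 0.37, 2.0 ± 0.24, 1.95 ± 0.24 and 2.01 ± 0.26 log2 units, with adjusted p between 1.91e-05 and 3.55e-05. H2az1, a histone variant, had 285 and 302 against 99.6, 120.3 and 104 CPM (log2 fold change 1.44 ± 0.18, adjusted p = 3.55e-05). Itgb7, the integrin beta 7 chain, had 102 and 140.4 against 23.1, 20.2 and 21.5 CPM (log2 fold change 2.49 ± 0.33, adjusted p = 5.67e-05). Ngfr, the low-affinity receptor for nerve growth factor, had 38.2 and 44.5 against 0, 0 and 0 CPM. With a count of 0 in all 3 MHCII+CD11c- libraries, its level was at least 58.8-fold higher in MHCII+CD11c+ macrophages when set against a floor of 3 counts per library (adjusted p = 3.55e-05). Hepacam2, an adhesion molecule of the immunoglobulin family, had 183 and 172 counts against 6, 4 and 3 (log2 fold change 4.83 ± 0.62, adjusted p = 3.55e-05). The leading genes other than Itgax, whose level the sort set, were called in each of the 19 alternative settings.

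**Figure D1:**
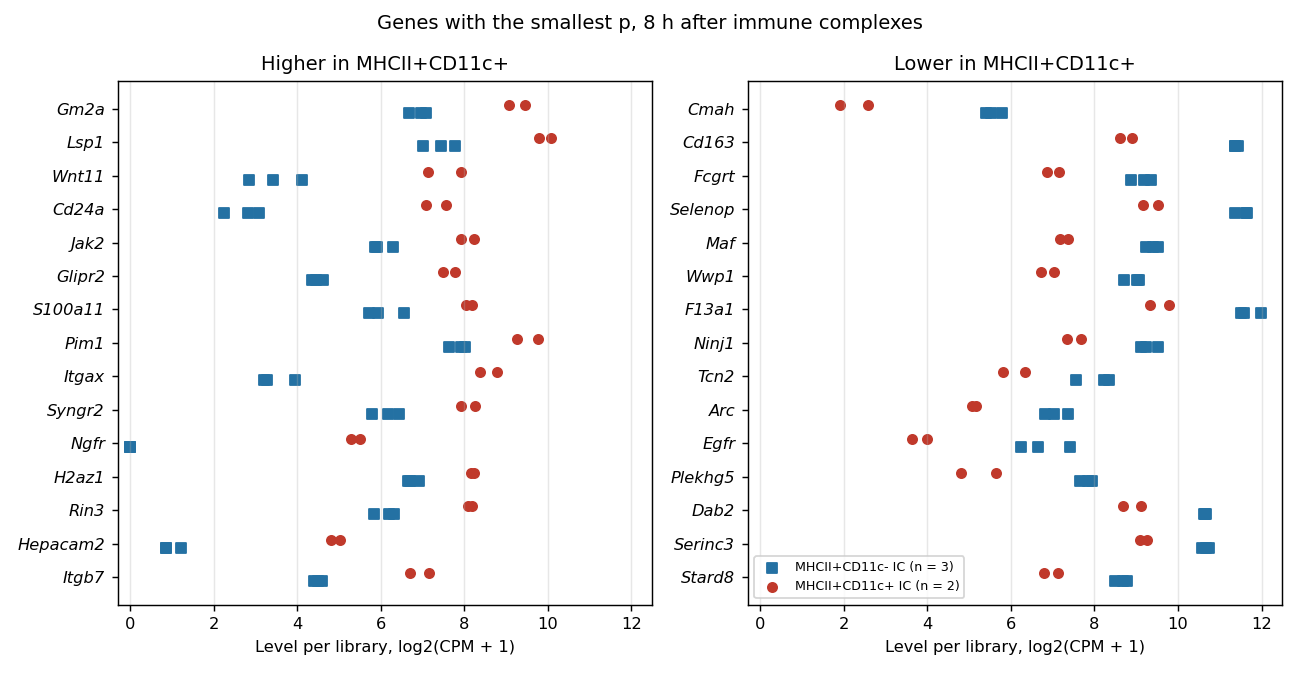
Level of the 15 genes with the smallest p in each direction, as log2(CPM + 1) on the horizontal axis, in each library after IC (circles, MHCII+CD11c+, n = 2; squares, MHCII+CD11c-, n = 3). No gene has overlapping groups, and Ngfr sits at 0 in all 3 MHCII+CD11c- libraries.

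The leading genes on the lower side had Cmah, Cd163 and Fcgrt among them. Cmah (chromosome 13, 24327404 to 24477377, plus strand), the hydroxylase that makes N-glycolylneuraminic acid, had 4.99 and 2.75 CPM in MHCII+CD11c+ and 45.2, 54.4 and 41.3 CPM in MHCII+CD11c- libraries (log2 fold change −3.57 ± 0.34, adjusted p = 1.14e-06). Cd163 (chromosome 6, 124304656 to 124330527, plus strand), the scavenger receptor for haemoglobin bound to haptoglobin, had 475 and 391 against 2623, 2652 and 2776 CPM (log2 fold change −2.63 ± 0.27, adjusted p = 3.76e-06). Fcgrt (chromosome 7, 45092990 to 45103851, minus strand), the alpha chain of the neonatal Fc receptor that recycles immunoglobulin G, had 141 and 116 against 584, 468 and 657 CPM (log2 fold change −2.15 ± 0.23, adjusted p = 3.76e-06). In each of them both MHCII+CD11c+ libraries lay far under the lowest MHCII+CD11c- library, and the 3 MHCII+CD11c- libraries were close to each other. Selenop (chromosome 15, 3268547 to 3280508, plus strand), a selenium transport protein, had 737 and 569 against 2640.1, 3158 and 3201 CPM (log2 fold change −2.20 ± 0.24, adjusted p = 4.85e-06). The transcription factor gene Maf, of the basic leucine zipper class (chromosome 8, 115682942 to 115707794, minus strand), had 165 and 143 against 598, 671 and 736 CPM (log2 fold change −2.11 ± 0.25, adjusted p = 1.91e-05). F13a1, the coagulation factor XIII A chain, had 875 and 641 against 3041, 2919 and 4090.1 CPM (log2 fold change −2.14 ± 0.27, adjusted p = 6.26e-05). Ninj1, which drives rupture of the plasma membrane in dying cells, had 205 and 161 against 549, 598 and 739 CPM (log2 fold change −1.78 ± 0.24, adjusted p = 6.26e-05). The other genes of this rank were Wwp1, a ubiquitin ligase (129.6 and 104 against 415, 516 and 534 CPM), Tcn2, the carrier of vitamin B12 (80.2 and 55.0 against 299.6, 189 and 323 CPM), the immediate early gene Arc (34.7 and 32.6 against 112, 129.6 and 165 CPM) and Egfr, the receptor for epidermal growth factor (15 and 11.4 against 74.9, 98.7 and 169 CPM). Their log2 fold changes were −2.06 ± 0.25, −2.0 ± 0.27, −2.01 ± 0.27 and −3.11 ± 0.42, with adjusted p between 2.07e-05 and 7.90e-05. Plekhg5, a guanine nucleotide exchange factor, the endocytic adaptor gene Dab2, Serinc3 and Stard8, a GTPase-activating protein, closed the rank, with log2 fold changes of −2.56 ± 0.33, −1.74 ± 0.24, −1.49 ± 0.21 and −1.69 ± 0.24 and adjusted p up to 9.49e-05. All 15 were called in each of the 19 alternative settings.

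For the 5 leading genes in each direction, the change with IC within each subset was read from the same libraries. Maf was the only called one of the 10 in MHCII+CD11c+ macrophages, from 61.9, 63.5 and 51.4 CPM in controls to 165 and 143 CPM after IC (log2 fold change 1.38 ± 0.23, adjusted p = 0.00965), and stayed under every MHCII+CD11c- library. Cmah was the only called one in MHCII+CD11c- macrophages, from 153, 91.4 and 143 to 45.2, 54.4 and 41.3 CPM (log2 fold change −1.46 ± 0.25, adjusted p = 0.00368). Over all genes, IC changed 33 genes (0.216%) within MHCII+CD11c+ and 107 (0.701%) within MHCII+CD11c- macrophages. For Gm2a, Lsp1, Wnt11, Cd24a and Jak2 the change with IC lay between −0.35 and 0.32 log2 units in MHCII+CD11c+ and between −1.30 and −0.24 in MHCII+CD11c- macrophages, and none of them was called.

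Genes known from resident macrophages were mostly lower. Of 30 listed genes, 21 were called lower and 0 higher, and all 30 had a negative log2 fold change, with a median of −2.13 against −0.03 over all genes kept. In bulk libraries, fewer cells of a type and less RNA per cell cannot be told apart. Scavenger and lectin receptors had some of the widest gaps. Cd209f, a C-type lectin, had 13.8 and 11.5 against 277, 442 and 1023 CPM (log2 fold change −5.51 ± 1.0, adjusted p = 0.00902). Its relative Cd209b had 6.32 and 3.85 against 59.2, 70.7 and 129.6 CPM (log2 fold change −4.07 ± 0.78, adjusted p = 0.00618). Mrc1, the mannose receptor CD206, had 1476 and 1334 against 3662, 3656 and 4138 CPM (log2 fold change −1.44 ± 0.24, adjusted p = 0.000924). Stab1, a scavenger receptor, had 414 and 201 against 2029, 1241 and 943 CPM (log2 fold change −2.19 ± 0.50, adjusted p = 0.0251). Folr2, the folate receptor beta of resident macrophages, had 19.4 and 8.98 against 92.5, 90.0 and 166 CPM (log2 fold change −3.02 ± 0.66, adjusted p = 0.0189). Among their secreted products, Gas6, a bridge between apoptotic cells and TAM receptors, had 125 and 66.3 against 648, 512 and 530.3 CPM (log2 fold change −2.55 ± 0.37, adjusted p = 0.000520). Timd4, a receptor for phosphatidylserine, had 52.2 and 48.6 against 168, 87.1 and 173 CPM (log2 fold change −1.50 ± 0.36, adjusted p = 0.0168). Fcna, the lectin ficolin A, had 11.6 and 7.51 against 72.1, 90.4 and 597 CPM (log2 fold change −4.71 ± 1.08, adjusted p = 0.0320), with 1 MHCII+CD11c- library far above the others. Ednrb, the endothelin receptor type B, had 25.6 and 36.6 against 294, 502 and 518 CPM (log2 fold change −3.82 ± 0.80, adjusted p = 0.0188). Members that were not called include Igf1 (111 and 88.3 against 263, 204 and 146 CPM; adjusted p = 0.729), Vsig4 (99.9 and 16.7 against 541, 144 and 28.3 CPM; 0.756) and Cd36 (584 and 536 against 859, 880.3 and 653 CPM; 0.797). MHCII+CD11c+ library 1 lay above library 2 in 26 of the 30 genes, so it was the one nearer to the MHCII+CD11c- libraries. Without it 12 members were called lower, and without library 2, 9 were, with medians of −2.53 and −1.91. Cd209f and Cd209b lost their calls without either MHCII+CD11c+ library (adjusted p = 0.112 and 0.200, and 0.0896 and 0.240), as did Stab1, Timd4 and Fcna (adjusted p from 0.0649 to 0.448). Stab1 and Timd4 also lost theirs without MHCII+CD11c- library 1 (adjusted p = 0.0608 and 0.0533) and Timd4 without library 3 (0.0709). In the fit without the LYVE1+CX3CR1+ libraries Cd209b, Timd4, Stab1 and Fcna were not called (adjusted p = 0.0514, 0.0586, 0.0716 and 0.110). Fcna was not called either from the 5 libraries of both groups alone (0.234). Cd163, Maf, Mrc1 and Gas6 kept their calls in every setting.

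**Figure D2:**
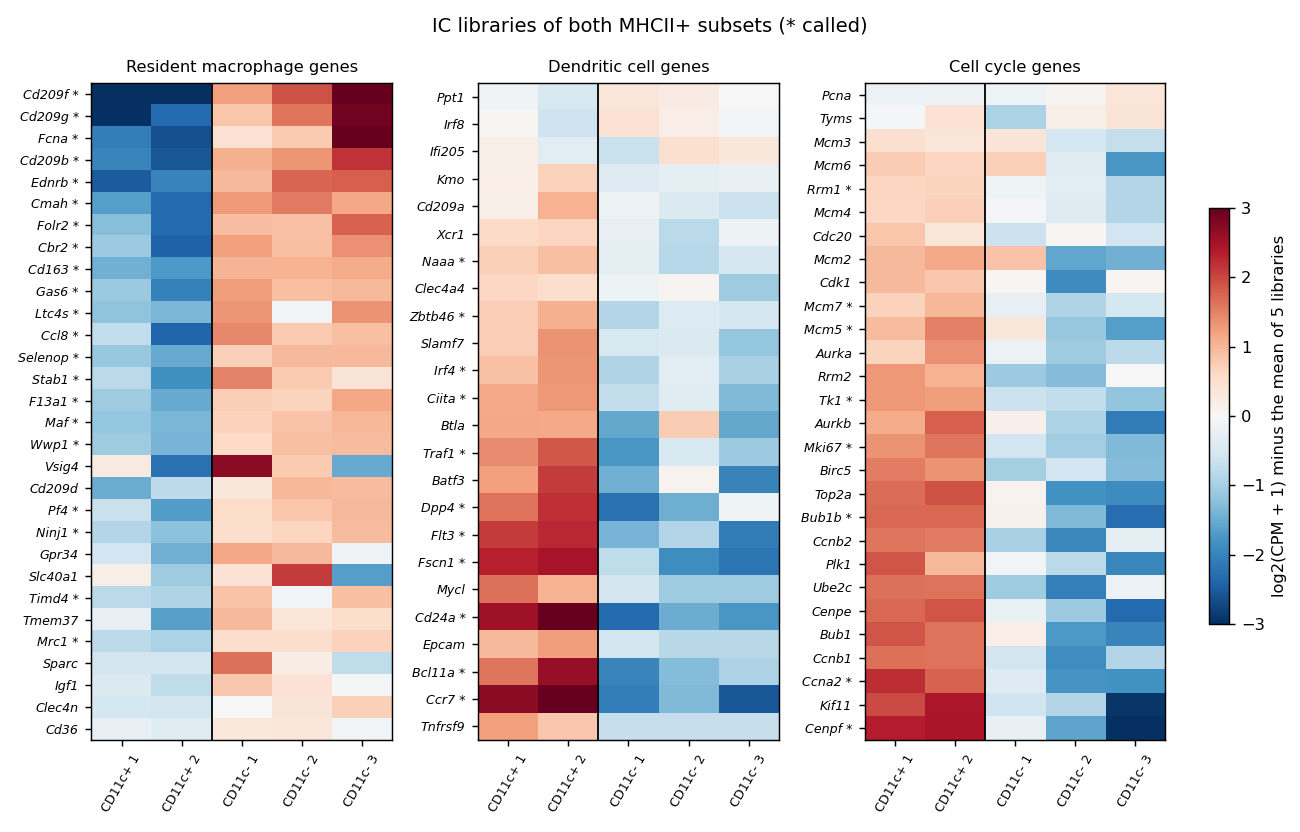
Level of each kept member of 3 gene lists in the 5 IC libraries, as log2(CPM + 1) minus the mean of the 5 libraries (red above, blue below), with called genes starred. The resident macrophage genes are blue and the dendritic cell and cell cycle genes mostly red in the MHCII+CD11c+ columns, and 26 of 30 resident genes are higher in MHCII+CD11c+ library 1 than in library 2.

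Because Maf was lower together with these genes, RefSeq promoter windows on GRCm38 were searched for the MAF recognition motif TGCTGAC, on both strands, from 250 bases before to 50 after each start site. Windows were matched for 10284 of the 15272 genes kept. The motif was in 3.71% of these windows, in 15 of 207 windows of genes called lower (7.25%), in 9 of 256 of genes called higher (3.52%) and in 4 of the 25 windows of resident macrophage genes (16%). The 2 resident genes below are among the named genes whose window holds it, 45 bases before the start of Timd4, on the opposite strand, and 107 bases before that of Fcna. They are shown 5′ to 3′ on the strand of the gene, with the motif in capitals.
Timd4, chr11:46810549-46810848, plus strand: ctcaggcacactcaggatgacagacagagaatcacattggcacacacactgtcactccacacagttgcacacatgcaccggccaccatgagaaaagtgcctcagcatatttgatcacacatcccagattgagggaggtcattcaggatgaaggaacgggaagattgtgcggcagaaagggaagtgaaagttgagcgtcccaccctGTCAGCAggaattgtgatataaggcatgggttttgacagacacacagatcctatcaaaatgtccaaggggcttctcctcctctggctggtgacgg
Fcna, chr2:25627925-25628224, minus strand: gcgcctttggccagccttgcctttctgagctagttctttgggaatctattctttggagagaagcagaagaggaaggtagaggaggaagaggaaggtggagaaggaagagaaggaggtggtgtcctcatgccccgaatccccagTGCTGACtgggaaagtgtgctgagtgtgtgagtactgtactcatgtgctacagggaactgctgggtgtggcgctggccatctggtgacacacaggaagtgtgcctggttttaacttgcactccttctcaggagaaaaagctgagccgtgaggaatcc
A match is a run of letters, and no binding was measured.

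The 4 genes of the I-A and I-E chains, the molecules that the label IAIE names, were left out. Another 13 genes of antigen presentation by MHC class II passed the filter. Of them 6 were called higher and 1 lower, with a median of 1.25 log2 units. Ciita, the coactivator of the pathway and not a sort marker, had 238 and 269 CPM in MHCII+CD11c+ and 65.0, 84.1 and 42.4 CPM in MHCII+CD11c- libraries (log2 fold change 1.99 ± 0.38, adjusted p = 0.00483). The invariant chain gene Cd74 had 11935 and 14976 against 5721, 5673 and 5522 CPM (log2 fold change 1.25 ± 0.29, adjusted p = 0.0180). Of the chains left out, H2-Eb1, the beta chain of I-E, had 3837 and 4179 against 1325, 1412 and 1463 CPM. H2-Ab1 and H2-Aa, the chains of I-A, had 7263 and 7989.8 against 2654, 2852 and 2821 CPM and 3364 and 3913 against 1429, 1638 and 1594 CPM. As a check of the sort, the transcripts of these chains were abundant in both gates. Every MHCII+CD11c+ library lay above every MHCII+CD11c- library, and since both gates asked for MHC class II, this difference is a description. The peptide-loading gene H2-DMb1 had 379 and 432 against 102, 101 and 85.6 CPM (log2 fold change 2.08 ± 0.37, adjusted p = 0.00258). Its close relative H2-DMb2 had 68.5 and 99.9 against 1.77, 5.77 and 12.1 CPM (log2 fold change 3.70 ± 0.55, adjusted p = 0.000377), and reads may have been split between them. Ifi30, a thiol reductase of the endosome, had 501 and 527 against 281, 182 and 215 CPM (log2 fold change 1.19 ± 0.20, adjusted p = 0.000903). H2-Ob, a chain of the regulator of loading DO, had 18.7 and 18.7 against 4.88, 6.39 and 0.275 CPM (adjusted p = 0.0453). The exception was Lgmn, the lysosomal protease legumain, with 844 and 642 against 1757, 1542 and 1462 CPM (log2 fold change −1.09 ± 0.23, adjusted p = 0.00482). Ctss, which encodes the cathepsin that trims the invariant chain, had 2974 and 2349 against 3002, 1589 and 1264 CPM (log2 fold change 0.45 ± 0.42, adjusted p = 0.788). Of 20 genes of MHC class I presentation, 0 were called in either direction, where 4.03% of all genes were, and their median was −0.03. Without MHCII+CD11c+ library 2 the calls of Ciita, Cd74, H2-DMb1 and Lgmn were lost (adjusted p = 0.105, 0.388, 0.0630 and 0.207), and H2-Ob was not called. The call of Cd74 was also lost without any other of the 5 libraries (adjusted p from 0.0603 to 0.0756), and those of H2-DMb2 and Ifi30 were never lost.

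CIITA is recruited to promoters that carry the S, X and Y boxes. Windows of the whole class II list, chains of I-A and I-E included, were searched for the core of the Y box, CTGATTGG, on both strands. Of the 17 kept genes of this list, 13 had a matched window. The Y box core was found in 4 of these 13 windows (30.8%). It was in 5.94% of all windows, 9.38% of those of genes called higher and 1.93% of those of genes called lower. The matches were in H2-Eb1, H2-Aa and H2-Eb2, whose chains were left out of the counts above, and in H2-Oa, which was not called. The windows of the called gene H2-Eb1 and of H2-Aa, which was not called, are shown 5′ to 3′ on the strand of the gene, with the match in capitals 62 and 51 bases before the start site.
H2-Eb1, chr17:34305617-34305916, plus strand: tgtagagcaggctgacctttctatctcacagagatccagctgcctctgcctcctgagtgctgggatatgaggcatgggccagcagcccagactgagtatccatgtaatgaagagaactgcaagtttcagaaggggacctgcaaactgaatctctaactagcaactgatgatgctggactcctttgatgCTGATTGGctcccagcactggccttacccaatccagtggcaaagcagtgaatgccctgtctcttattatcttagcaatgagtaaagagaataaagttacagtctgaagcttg
H2-Aa, chr17:34287774-34288073, minus strand: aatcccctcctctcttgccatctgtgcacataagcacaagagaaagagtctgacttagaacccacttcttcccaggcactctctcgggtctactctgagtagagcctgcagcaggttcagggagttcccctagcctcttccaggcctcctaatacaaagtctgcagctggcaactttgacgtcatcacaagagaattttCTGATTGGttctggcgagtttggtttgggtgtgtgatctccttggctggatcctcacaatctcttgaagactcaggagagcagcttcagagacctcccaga
No match in the other 9 windows says only that these letters are not there.

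Of 24 genes known from dendritic cells that passed the filter, 11 were called higher and 0 lower, with a median of 1.99 log2 units (1.91 with genes at 0 in one subset set at their bound). Flt3, the receptor for the growth factor of dendritic cells, had 42.3 and 47.3 CPM in MHCII+CD11c+ and 2.88, 4.53 and 1.38 CPM in MHCII+CD11c- libraries (log2 fold change 3.90 ± 0.65, adjusted p = 0.000686). Ccr7, the chemokine receptor for migration to lymph nodes, had 68.6 and 98.6 against 1.55, 3.30 and 0.826 CPM (log2 fold change 5.41 ± 0.88, adjusted p = 0.00240). Zbtb46, a transcription factor of conventional dendritic cells, had 39.4 and 49.7 against 12.2, 17.3 and 16 CPM (log2 fold change 1.55 ± 0.40, adjusted p = 0.0248). In all 3 genes the groups did not overlap, and the levels of Flt3 and Zbtb46 were modest even in MHCII+CD11c+ libraries. Dpp4, a surface peptidase, had 42.8 and 63.8 against 2.0, 4.12 and 11.8 CPM (log2 fold change 3.17 ± 0.64, adjusted p = 0.00598). Fscn1, an actin-bundling protein of mature dendritic cells, had 47.6 and 52.6 against 4.66, 1.65 and 1.10 CPM (log2 fold change 4.31 ± 0.96, adjusted p = 0.0126). Bcl11a, a transcription factor, had 11 and 23.1 against 0, 0.618 and 1.10 CPM (log2 fold change 4.88 ± 1.06, adjusted p = 0.00734). Traf1, an adaptor of the TNF receptor family, had 253 and 346 against 27.1, 68.0 and 43.8 CPM (log2 fold change 2.69 ± 0.52, adjusted p = 0.00873). Of markers of the cross-presenting type of dendritic cell, Xcr1 had 4.26 and 4.58 against 2.0, 1.03 and 2.20 CPM (log2 fold change 1.33 ± 1.45, adjusted p = 0.824), and Clec9a, with 8 and 4 against 8, 0 and 0 counts, did not pass the filter. Irf8 had 90.9 and 56.8 against 118, 101 and 83.1 CPM and Cd209a 80.1 and 146 against 63.2, 51.9 and 44.9 CPM (adjusted p = 0.743 and 0.412). The summed level of the listed genes was 2048 to 2543 CPM in MHCII+CD11c+ and 707 to 859.9 CPM in MHCII+CD11c- libraries, while that of 12 macrophage lineage genes was 11116 to 13171 and 14559 to 19219 CPM, and the part of dendritic cells in the result was not tested. Without MHCII+CD11c+ library 2, 4 members were called, Dpp4 lost its call (adjusted p = 0.0812), and Zbtb46 lost its call without any of the 5 libraries in turn (adjusted p from 0.0575 to 0.392), whereas Flt3, Ccr7, Cd24a and Irf4 were called in every setting.

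Transcription factors of macrophages moved in both directions. Of 41 listed genes, 7 were higher and 4 lower, with a median of −0.08. Irf4, a factor of the interferon regulatory family that acts in dendritic cells and in alternatively activated macrophages, had 163 and 224 against 47.2, 70.9 and 44.6 CPM (log2 fold change 1.83 ± 0.25, adjusted p = 8.60e-05). Nr4a3, an inducible orphan nuclear receptor, had 634 and 958 against 109.8, 171 and 179 CPM (log2 fold change 2.38 ± 0.35, adjusted p = 0.000567). Runx3, a Runt-domain factor, had 84.8 and 90.3 against 16.6, 15.9 and 16.8 CPM (log2 fold change 2.41 ± 0.44, adjusted p = 0.00172). Rel, a subunit of NF-kappaB, had 454 and 604 against 203, 289 and 206 CPM (log2 fold change 1.19 ± 0.21, adjusted p = 0.000973). These 4 factors were higher in each MHCII+CD11c+ library than in any MHCII+CD11c- library. Nr4a2, Irf5 and Id2 completed the higher group, with 1.27 ± 0.26, 0.75 ± 0.17 and 1.21 ± 0.32 log2 units (adjusted p = 0.00495, 0.0105 and 0.0351). On the lower side, Klf2 had 342 and 437 against 636, 659.9 and 601 CPM (log2 fold change −0.70 ± 0.17, adjusted p = 0.0197). Cebpd had 69.5 and 52.2 against 107, 136 and 145 CPM (log2 fold change −1.09 ± 0.30, adjusted p = 0.0346). Spi1, which encodes the myeloid master factor PU.1, had 278 and 305 against 287, 244 and 271 CPM (log2 fold change 0.12 ± 0.19, adjusted p = 0.902). Rel lost its call without MHCII+CD11c+ library 2 (adjusted p = 0.0675), and Cebpd without 4 of the 5 libraries in turn (adjusted p from 0.102 to 0.593).

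**Figure D3:**
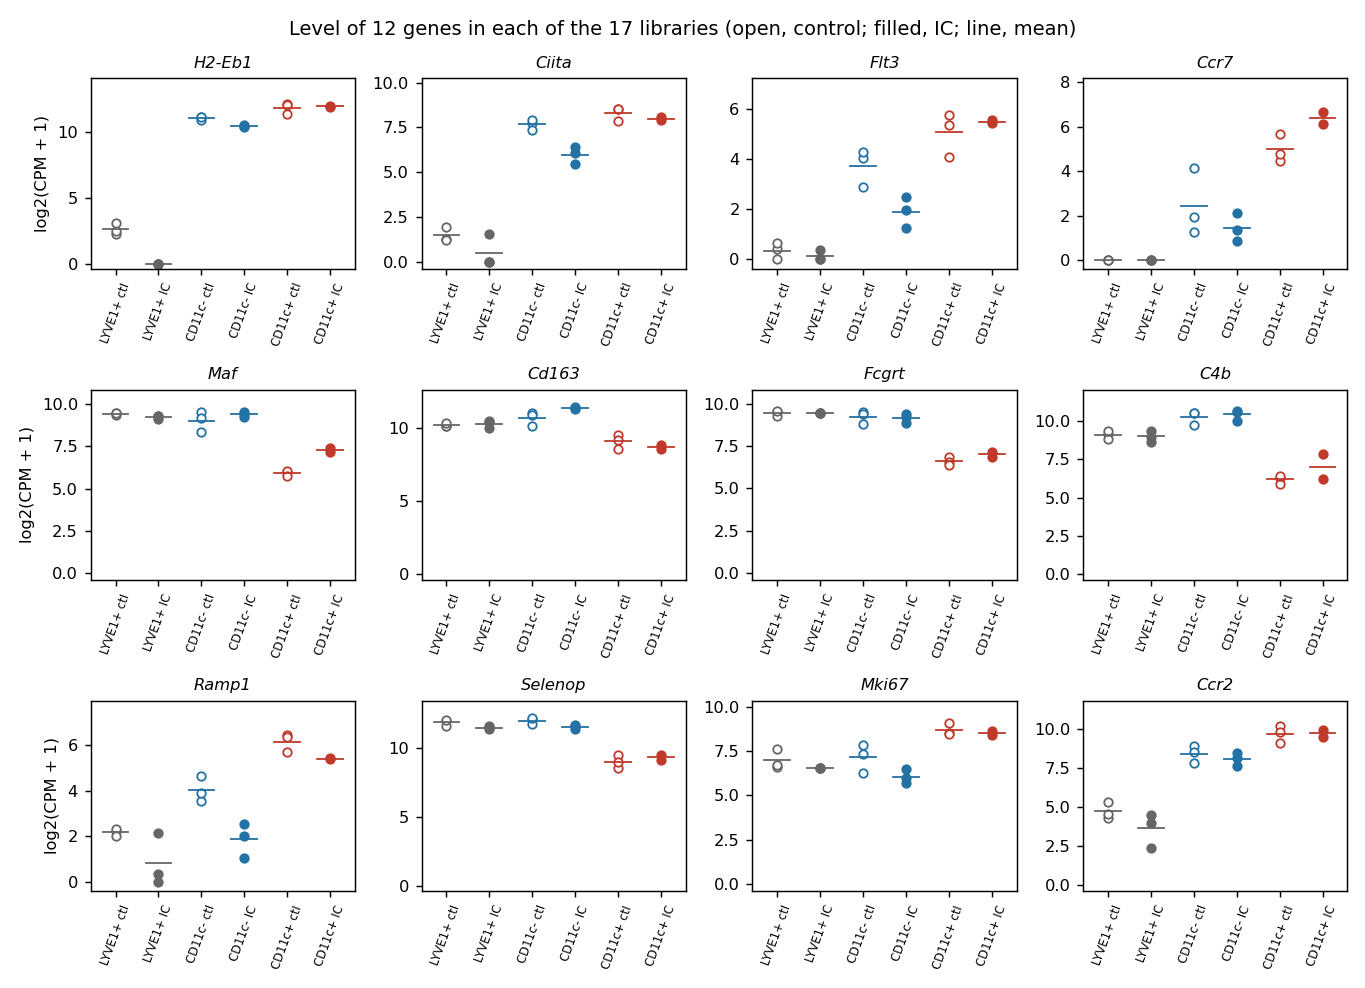
Level of 12 genes as log2(CPM + 1) in each of the 17 libraries, by subset and treatment (open circles, control; filled circles, IC; line, mean of the group). After IC the MHCII+CD11c+ libraries lie above the MHCII+CD11c- libraries for H2-Eb1, Ciita, Flt3, Ccr7, Ramp1, Mki67 and Ccr2 and below them for Maf, Cd163, Fcgrt, C4b and Selenop, with no overlap, and of these only Ccr2 is not called (adjusted p = 0.105).

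Most cell cycle genes had positive values. Among 28 of them, 8 passed the test as higher and 0 as lower. A positive log2 fold change was found for 27, and the median was 2.3. Mki67, a marker of cycling cells, had 333 and 402 CPM in MHCII+CD11c+ and 87.1, 63.2 and 51.5 CPM in MHCII+CD11c- libraries (log2 fold change 2.45 ± 0.37, adjusted p = 0.000792). Tk1, the thymidine kinase of S phase, had 56.0 and 53.5 against 13.7, 12.8 and 9.08 CPM (log2 fold change 2.20 ± 0.35, adjusted p = 0.000421). Cenpf, a kinetochore protein, had 39.4 and 42.7 against 5.76, 1.65 and 0 CPM (log2 fold change 4.0 ± 0.78, adjusted p = 0.00492). In each of these the pair of MHCII+CD11c+ libraries agreed closely, while among the MHCII+CD11c- libraries library 1 was the highest. Ccna2, cyclin A2, had 37.5 and 27.1 against 5.32, 1.44 and 1.38 CPM (log2 fold change 3.55 ± 0.81, adjusted p = 0.0107). Bub1b, a kinase of the spindle checkpoint, had 32.5 and 32.8 against 10.2, 3.09 and 1.10 CPM (log2 fold change 2.74 ± 0.61, adjusted p = 0.00827). Mcm5 and Mcm7, subunits of the replicative helicase, had 52.0 and 77.0 against 33.7, 11.5 and 7.71 CPM and 43.6 and 54.6 against 22.4, 14 and 18.2 CPM (adjusted p = 0.0290 and 0.0405). Top2a, with 121 and 143 against 39.9, 9.89 and 9.36 CPM, missed the threshold (adjusted p = 0.0572). Pcna, with 125 and 126 against 129, 148 and 180.0 CPM, was the member with a negative value (log2 fold change −0.28 ± 0.24, adjusted p = 0.749). Summed over the list, the MHCII+CD11c+ libraries held 1457 and 1579 CPM and the MHCII+CD11c- libraries 435 to 708 CPM. The count of called members was 18 with DESeq2 and 22 with voom, and it was 14 without MHCII+CD11c- library 1, 4 without MHCII+CD11c+ library 1 or MHCII+CD11c- library 3, and 3 without library 2 of either subset. Mki67 and Tk1 were called throughout, Cenpf lost its call without MHCII+CD11c+ library 2 (adjusted p = 0.0558) and Bub1b without library 2 of either subset (0.0780 and 0.0552).

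E2F factors drive many S-phase genes, and their site has the forms TTTCCCGC and TTTGGCGC, which were searched on both strands. The former was in 2 of 25 windows of cell cycle genes (8.00%, against 2.13% of all windows) and the latter in 3 of 25 (12% against 0.972%), and the only listed genes with a match were helicase subunits. The windows of the 2 called ones are shown 5′ to 3′ on the strand of the gene, with the match in capitals, 165 bases before the start of Mcm7 and 149 before that of Mcm5, in both cases on the opposite strand.
Mcm7, chr5:138171834-138172133, minus strand: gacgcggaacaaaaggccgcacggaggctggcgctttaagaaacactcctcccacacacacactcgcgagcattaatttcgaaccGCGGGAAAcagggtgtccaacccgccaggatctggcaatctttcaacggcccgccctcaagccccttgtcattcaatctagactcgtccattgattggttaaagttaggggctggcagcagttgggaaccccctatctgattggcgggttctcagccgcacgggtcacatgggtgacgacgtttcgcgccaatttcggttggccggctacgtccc
Mcm5, chr8:75109259-75109558, plus strand: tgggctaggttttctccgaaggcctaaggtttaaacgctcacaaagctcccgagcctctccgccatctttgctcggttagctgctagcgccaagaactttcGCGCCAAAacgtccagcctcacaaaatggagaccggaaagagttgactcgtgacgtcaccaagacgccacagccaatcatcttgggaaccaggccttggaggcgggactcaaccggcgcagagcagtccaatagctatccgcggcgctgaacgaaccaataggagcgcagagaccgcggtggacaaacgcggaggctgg
Among all genes called higher, 1.95% of 256 windows held each form.

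Genes of the actin cytoskeleton had smaller but nearly uniform positive values. Of 38 genes, 10 were called higher and 0 lower, 36 had a positive log2 fold change, and the median was 0.58. Beside Lsp1, the leading members were Myo1g, a membrane-linked myosin (495 and 581 against 208, 152 and 214 CPM; log2 fold change 1.49 ± 0.20, adjusted p = 5.82e-05), and Tmsb10. The latter, a thymosin that binds actin monomers, had 249 and 224 against 59.0, 61.2 and 61.6 CPM (log2 fold change 1.96 ± 0.26, adjusted p = 5.82e-05). Ezr, which links actin to the membrane, had 569 and 728 against 247, 141 and 121 CPM (log2 fold change 1.94 ± 0.34, adjusted p = 0.00213). The hyaluronan receptor gene Cd44 had 1513 and 1708 against 716, 731 and 499.7 CPM (log2 fold change 1.31 ± 0.31, adjusted p = 0.0184). The actins themselves differed less, with 12260.0 and 14335 against 9881, 6789 and 8030.4 CPM for Actb (log2 fold change 0.69 ± 0.18, adjusted p = 0.0234) and 1881 and 2255 against 1049, 756 and 1112 CPM for Actg1 (log2 fold change 1.09 ± 0.19, adjusted p = 0.00122). Without MHCII+CD11c+ library 2 or MHCII+CD11c- library 3 there were 4 and 6 called members, and without MHCII+CD11c- library 1 there were 18.

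Of 19 genes of integrins and adhesion, 4 were higher, where 2.29% of all genes were, and 0 lower (median 0.63). These were Itgb7, Itga4, Selplg and Itga1. Itga4, the partner of Itgb7 in the integrin that binds VCAM-1 and MAdCAM-1, had 456 and 533 against 248, 274 and 226 CPM (log2 fold change 0.99 ± 0.22, adjusted p = 0.00923). Selplg, the selectin ligand PSGL-1, had 250 and 305 against 149, 129 and 107 CPM (log2 fold change 1.11 ± 0.23, adjusted p = 0.00404). Itga1, a collagen-binding chain, had 39.2 and 31.0 against 0.443, 8.03 and 2.48 CPM (log2 fold change 3.24 ± 0.82, adjusted p = 0.0206). The calls of Itga4 and Selplg were lost without MHCII+CD11c+ library 2 (adjusted p = 0.207 and 0.135) and that of Itga1 without either MHCII+CD11c+ library (adjusted p = 0.129 and 0.107). Without MHCII+CD11c- library 3 Itga4 and Itga1 lost theirs too (0.0525 and 0.0995), and Itga1 also without library 1 (0.0634). Of 24 genes of monocytes, 3 were higher, where 2.29% of all genes were, and 0 lower (median 0.36). F10, coagulation factor X, had 96.7 and 90.5 against 10.9, 13 and 10.2 CPM (log2 fold change 3.04 ± 0.60, adjusted p = 0.00332). Ccr2, the receptor for recruitment of monocytes, had 721 and 970.2 against 192, 349 and 281 CPM without being called (log2 fold change 1.62 ± 0.50, adjusted p = 0.105).

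**Figure D4:**
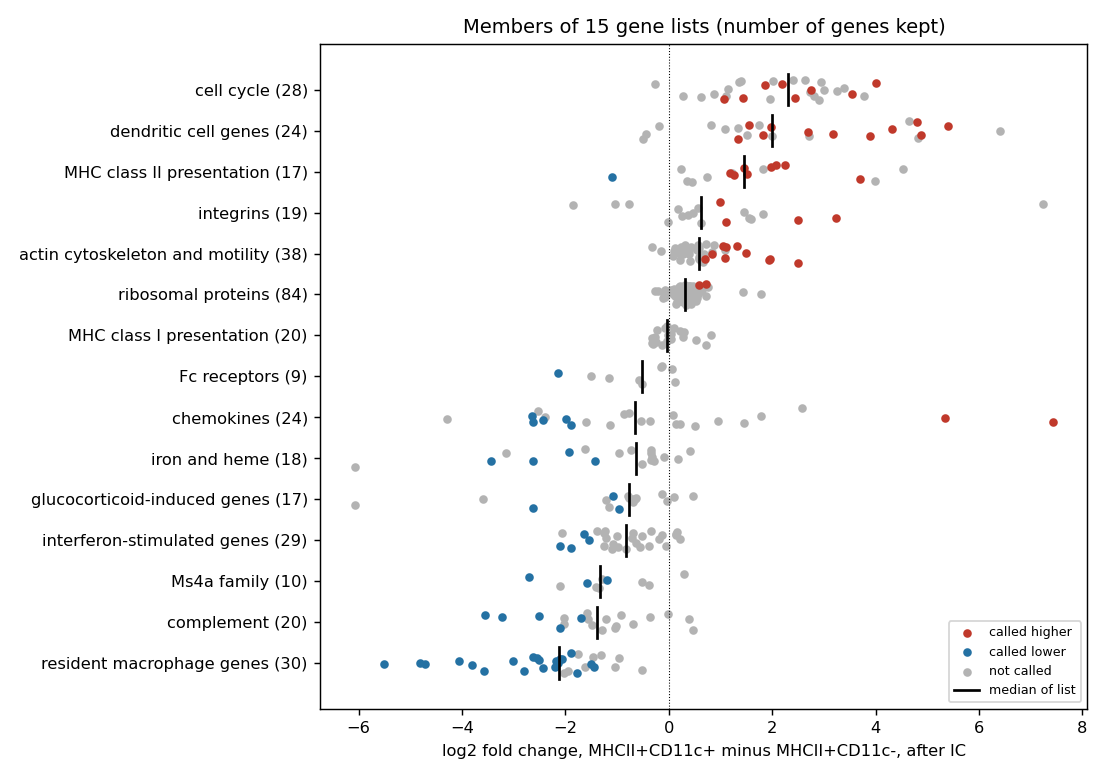
Fitted log2 fold change (MHCII+CD11c+ minus MHCII+CD11c-, after IC) of each kept member of 15 gene lists, with the median of each list as a bar and called genes in colour. Medians run from −2.13 for resident macrophage genes to 2.3 for cell cycle genes, and MHC class I genes lie around 0.

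Of 24 chemokine genes, 2 were higher and 5 lower (median −0.66), where 2.29% and 1.75% of all genes were. Ccl22, a ligand of CCR4, had 98.4 and 463 CPM in MHCII+CD11c+ and 2.88, 1.03 and 0.826 CPM in MHCII+CD11c- libraries (log2 fold change 7.43 ± 1.06, adjusted p = 0.00285). Ccl17, the other ligand of CCR4, had 75.4 and 158 against 0.222, 3.50 and 4.95 CPM (log2 fold change 5.35 ± 1.04, adjusted p = 0.00921). Both were more than 2 times as high in MHCII+CD11c+ library 2 as in library 1, and the call of Ccl22 was lost with voom (adjusted p = 0.109). In the lower group Ccl24, a ligand of CCR3, had 95.5 and 119 against 436, 683 and 898 CPM (log2 fold change −2.65 ± 0.39, adjusted p = 0.000610). The CCR2 ligand gene Ccl7 had 91.7 and 69.8 against 267, 348 and 351 CPM (log2 fold change −2.0 ± 0.35, adjusted p = 0.00187). Ccl12, another ligand of CCR2, had 15.6 and 12.1 against 53.9, 106 and 97.7 CPM (log2 fold change −2.63 ± 0.54, adjusted p = 0.00418). The rest of the group were Ccl8 and Pf4 (adjusted p = 0.0250 and 0.0404). Ccl2, the chief CCR2 ligand, had 250.5 and 268 against 302, 398 and 429.8 CPM (log2 fold change −0.54 ± 0.24, adjusted p = 0.288). The neutrophil attractant Cxcl2 had 1645 and 1478 against 1091, 1467 and 1459.6 CPM (log2 fold change 0.22 ± 0.38, adjusted p = 0.918). Among 20 receptors, Ltb4r1, the receptor for leukotriene B4, was higher (42.8 and 54.4 against 1.33, 2.88 and 3.58 CPM; log2 fold change 4.22 ± 0.60, adjusted p = 0.000150), as was Ccr7. The chemerin receptor gene Cmklr1 was lower (146 and 96.6 against 363, 269 and 301 CPM; log2 fold change −1.35 ± 0.29, adjusted p = 0.00795). The calls of Ccl7, Ccl12 and Cmklr1 were lost without MHCII+CD11c+ library 2 (adjusted p = 0.0811, 0.127 and 0.290).

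Of 22 cytokines and antagonists, 3 were higher and 1 lower (median 0.18), where 2.29% and 1.75% of all genes were. Il6 had 81.8 and 103 against 7.54, 24.5 and 17.9 CPM (log2 fold change 2.47 ± 0.61, adjusted p = 0.0332). Il1r2, the decoy receptor for IL-1, had 48.0 and 32.8 against 3.33, 6.18 and 4.95 CPM (log2 fold change 3.06 ± 0.55, adjusted p = 0.00158). Il12b, the p40 chain of IL-12 and IL-23, had 42 and 53 counts against 0, 0 and 0, at least 11.3-fold higher (adjusted p = 0.0306). Il16 was lower (14.2 and 14.1 against 60.1, 62.2 and 58.3 CPM; log2 fold change −2.08 ± 0.49, adjusted p = 0.0157). Il1b, with 551 and 804 against 65.2, 151 and 89.7 CPM, was not called (log2 fold change 2.73 ± 0.77, adjusted p = 0.0833). Without MHCII+CD11c+ library 2, Il6, Il12b and Il16 lost their calls (adjusted p = 0.361, 0.154 and 0.288), and without library 1 Il1r2, Il6, Il12b and Il16 did (0.0583 to 0.175). Il6 and Il12b also lost theirs without MHCII+CD11c- library 1 or 3 (adjusted p from 0.0749 to 0.107) and Il12b without library 2 (0.112).

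Most complement genes had negative values. Of 20 genes, 5 were called lower, where 1.75% of all genes were, and 0 higher, with a median of −1.39. C4b, complement component 4, had 229.6 and 72.2 CPM in MHCII+CD11c+ and 1656, 1035 and 1577 CPM in MHCII+CD11c- libraries (log2 fold change −3.23 ± 0.46, adjusted p = 0.000953). C5ar1, the receptor for the anaphylatoxin C5a, had 145 and 121 against 445, 402 and 448 CPM (log2 fold change −1.70 ± 0.32, adjusted p = 0.00288). Both had library 1 nearer to the MHCII+CD11c- levels. C5ar2, the second C5a receptor, and Cd55, which speeds the decay of convertases, were also lower, with log2 fold changes of −2.11 ± 0.58 and −3.55 ± 0.89 (adjusted p = 0.0361 and 0.0189). C1qa, with 896 and 389 against 2145, 1394 and 1865 CPM, was not called (log2 fold change −1.49 ± 0.54, adjusted p = 0.197). Without MHCII+CD11c+ library 2, 1 member was called, and C5ar1 and Cd55 lost their calls (adjusted p = 0.104 and 0.251), the last also without MHCII+CD11c+ library 1 (0.234) or MHCII+CD11c- library 3 (0.167).

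Among the receptors that bind the antibody part of IC, only Fcgrt passed the test. Of 9 Fc receptor genes 1 was lower and 0 higher, with a median of −0.51. The activating receptor genes Fcgr1, Fcgr3 and Fcgr4 were not called. Fcgr1 had 108 and 91.3 against 226, 324 and 299.7 CPM (log2 fold change −1.51 ± 0.61, adjusted p = 0.256). Fcgr3 had 269 and 248 against 421, 350.0 and 332 CPM (log2 fold change −0.51 ± 0.18, adjusted p = 0.138). For Fcgr4 the levels were 12.3 and 9.16 against 14.4, 29.3 and 28.6 CPM (log2 fold change −1.16 ± 1.09, adjusted p = 0.778). Both MHCII+CD11c+ libraries lay under all MHCII+CD11c- libraries for each of these 3 genes, as for 17% of all genes. Of 20 genes of signalling downstream of Fc receptors, 2 were higher, where 2.29% of all genes were, and the median was 0.10. The kinase gene Prkcd had 479.9 and 620.4 against 282, 291 and 274 CPM (log2 fold change 0.96 ± 0.19, adjusted p = 0.00360). Plcg2, phospholipase C gamma 2, had 373 and 435 against 228, 229.5 and 195 CPM (log2 fold change 0.89 ± 0.20, adjusted p = 0.00945). Both calls were lost without MHCII+CD11c+ library 2 (adjusted p = 0.200 and 0.250), and that of Plcg2 also without MHCII+CD11c- library 3 (0.0545).

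Interferon-stimulated and glucocorticoid-induced genes had mostly negative values. Of 29 interferon-stimulated genes, 4 were lower, where 1.75% of all genes were, and 0 higher (median −0.82). Ifi27l2a had 217 and 115 against 496, 622 and 1034 CPM (log2 fold change −2.11 ± 0.35, adjusted p = 0.00119). Oasl2 had 129 and 110.3 against 251, 304 and 488 CPM (log2 fold change −1.54 ± 0.38, adjusted p = 0.0232). Igtp, a GTPase of the immunity-related family, had 23.9 and 20.2 against 79.2, 59.1 and 68.8 CPM (log2 fold change −1.64 ± 0.45, adjusted p = 0.0340). The widely used markers Isg15 (41.6 and 34.1 against 48.3, 80.3 and 71.8 CPM; log2 fold change −0.82 ± 0.55, adjusted p = 0.604) and Cxcl10 (46.0 and 53.1 against 45.9, 62.6 and 26.4 CPM; log2 fold change 0.14 ± 0.66, adjusted p = 0.978) were not called. Of 17 glucocorticoid-induced genes, 3 were lower and 0 higher (median −0.77), Cd163, Cebpd and Tsc22d3. Tsc22d3, the leucine zipper protein GILZ, had 323 and 219.9 against 600.2, 416 and 567 CPM (log2 fold change −0.96 ± 0.23, adjusted p = 0.0161). Fkbp5 had 145 and 127 against 206, 162 and 341 CPM (log2 fold change −0.80 ± 0.36, adjusted p = 0.320). Ifi27l2a was called in every setting, and Oasl2, Igtp and Tsc22d3 lost their calls without MHCII+CD11c+ library 2 (adjusted p = 0.392, 0.450 and 0.547). Oasl2 and Igtp also lost theirs without MHCII+CD11c+ library 1 (adjusted p = 0.154 and 0.183) and without MHCII+CD11c- library 3 (0.0850 and 0.0829), Igtp without libraries 1 and 2 of that subset as well (0.0940 and 0.0604) and Tsc22d3 without libraries 1 and 3 (0.0547 and 0.0611).

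Of 18 iron and heme genes, 4 were lower, where 1.75% of all genes were, and 0 higher (median −0.63). The 4 were Cd163, Hmox1, Tfrc and Cp. Hmox1, the enzyme that breaks down heme, had 435 and 355 against 919.7, 1041 and 1219.9 CPM (log2 fold change −1.42 ± 0.20, adjusted p = 0.000126). Tfrc, the transferrin receptor, had 64.9 and 66.1 against 178, 280.0 and 288 CPM (log2 fold change −1.92 ± 0.35, adjusted p = 0.00239). Cp, the copper oxidase ceruloplasmin, had 21.9 and 7.70 against 106, 146 and 232 CPM (log2 fold change −3.43 ± 0.62, adjusted p = 0.00394). Over 25 lipid genes, 2 were higher and 3 lower, where 2.29% and 1.75% of all genes were, with a median of 0.02. Mylip, a ubiquitin ligase, was lower (58.0 and 55.9 against 149, 208 and 195 CPM; log2 fold change −1.69 ± 0.24, adjusted p = 0.000140). Lpl, lipoprotein lipase, was higher (973 and 1939 against 243, 602 and 558 CPM; log2 fold change 1.64 ± 0.36, adjusted p = 0.0164), whereas the cholesterol exporter gene Abca1 was lower (492 and 346 against 1299, 1029.7 and 959 CPM; log2 fold change −1.39 ± 0.24, adjusted p = 0.00107). Of 33 lysosomal genes, 1 was higher, Psap, the precursor of the saposins (3694 and 4296 against 2781, 1939.7 and 1825 CPM; log2 fold change 0.87 ± 0.21, adjusted p = 0.0144). Another 4 were lower, among them Grn, progranulin (1198 and 901 against 2416, 1535 and 1818 CPM; log2 fold change −0.87 ± 0.21, adjusted p = 0.0142). Of 10 Ms4a genes, 3 were lower, where 1.75% of all genes were, and 0 higher (median −1.32). The 3 were led by Ms4a4a (45.0 and 26.4 against 211, 180.1 and 313 CPM; log2 fold change −2.71 ± 0.42, adjusted p = 0.000525). Mylip, Hmox1 and Ms4a4a were called in every setting, while Tfrc, Cp, Lpl, Abca1, Psap and Grn lost their calls without MHCII+CD11c+ library 2 (adjusted p from 0.0638 to 0.448). Psap also lost its call without MHCII+CD11c- library 2 or 3 (0.0782 and 0.0850) and Grn without library 1 (0.0700).

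Of 9 genes of receptors through which nerves act on macrophages, Ramp1 was the only one called higher. Ramp1, the subunit that makes a receptor for the neuropeptide CGRP, had 42.6 and 40.3 CPM in MHCII+CD11c+ and 4.88, 3.09 and 1.10 CPM in MHCII+CD11c- libraries (log2 fold change 3.74 ± 0.62, adjusted p = 0.000610). Its partner gene Calcrl had 39.5 and 37.4 against 65.2, 57.5 and 28.3 CPM (log2 fold change −0.39 ± 0.35, adjusted p = 0.763). The counts of Ramp1 in the MHCII+CD11c- libraries were 22, 15 and 4, and the subsets did not overlap. Pfkp, the platelet isoform of phosphofructokinase, led the 2 higher genes of glycolysis (418 and 414 against 136, 130.2 and 133 CPM; log2 fold change 1.64 ± 0.23, adjusted p = 8.91e-05), and 0 of 20 were lower (median 0.41). Of 84 ribosomal protein genes 2 were higher, near the 2.29% of all genes called higher, and 0 lower, with a median of 0.32 and 77 positive values. The call of Rpl4 was lost in 14 of the 19 alternatives and that of Rpsa in 5, among them 4 that left out a library (adjusted p from 0.0579 to 0.313). Of 29 genes of growth factors and matrix, 2 were higher and 1 lower (median 0.08), where 2.29% and 1.75% of all genes were. Mmp12, a macrophage elastase, had 51.7 and 88.3 against 2.44, 0.206 and 2.48 CPM (log2 fold change 5.38 ± 0.90, adjusted p = 0.00221). Plaur, the urokinase receptor, had 296 and 343 against 133, 129 and 116 CPM (log2 fold change 1.34 ± 0.27, adjusted p = 0.00326), a call lost without MHCII+CD11c+ library 2 (adjusted p = 0.0736). The lower gene was Hbegf, a ligand of the EGF receptor, with 20.4 and 20.2 against 55.9, 79.5 and 63.0 CPM (log2 fold change −1.70 ± 0.48, adjusted p = 0.0437), a call lost without any of the 5 libraries in turn (adjusted p from 0.0563 to 0.411). Ramp1, Pfkp and Mmp12 were called in every setting.

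Further groups held few called genes, to be read beside the 2.29% of all genes called higher and the 1.75% called lower. Some genes, such as Cd163, Mertk and Dpp4, are in more than 1 list and are counted in each, so the counts of lists are not independent. Of 12 macrophage lineage genes 1 was higher, Ptprc, the leukocyte common antigen CD45, and 4 were lower, Csf1r (−0.95 ± 0.21 log2 units), Mertk (−1.52 ± 0.38), Cd68 (−0.64 ± 0.17) and Mrc1, with a median of −0.46. Without MHCII+CD11c+ library 2 the calls of Ptprc, Csf1r, Mertk and Cd68 were lost (adjusted p from 0.0558 to 0.504), and those of Mertk and Cd68 were also lost without any other of the 5 libraries (0.0542 to 0.269) and that of Csf1r without MHCII+CD11c+ library 1 (0.0843). Of 23 genes of apoptotic cell uptake 5 were lower and 0 higher (median −0.51), Mertk, Timd4, Stab1, Gas6 and Pros1, the last like Gas6 a ligand of TAM receptors. Among 22 C-type lectins 2 were higher, Clec4b1 (47.7 and 59.6 against 11.1, 14.2 and 3.30 CPM) and Ly75, the endocytic receptor DEC-205 (11.2 and 16.7 against 0.443, 0.206 and 0 CPM). Another 4 were lower, among them Cd209b, Cd209f and Mrc1, whereas Cd209a had a positive value and was not called. Of 18 ligands of costimulation and checkpoints 2 were higher and 0 lower (median 0.60). Icosl, the ligand of ICOS, had 90.6 and 92.2 against 43.2, 36.1 and 44.6 CPM (log2 fold change 1.15 ± 0.29, adjusted p = 0.0211). Pvr, a ligand of TIGIT and CD226, had 101 and 105 against 52.5, 55.4 and 43.8 CPM (log2 fold change 1.02 ± 0.23, adjusted p = 0.00921). Both lost their calls without either MHCII+CD11c+ library (0.0668 to 0.230) and without MHCII+CD11c- library 3 (0.0533 and 0.0532). Of 23 pattern recognition genes 2 were lower, Tlr5 and Tlr8, the receptors for flagellin and for single-stranded RNA (log2 fold change −3.33 ± 0.67, adjusted p = 0.00513 and log2 fold change −1.03 ± 0.30, adjusted p = 0.0487), and 0 higher. Both were lost without MHCII+CD11c+ library 2 (0.102 and 0.752), and Tlr8 also without MHCII+CD11c+ library 1 (0.0862), without MHCII+CD11c- library 1 or 3 (0.157 and 0.113) and at equal depth (0.0661). Of 14 purinergic genes Dpp4 was higher and P2ry13, a receptor for ADP, lower (log2 fold change −2.58 ± 0.54, adjusted p = 0.00517), the latter lost without either MHCII+CD11c+ library (0.0790 and 0.103). Lgmn was the only called one of 16 genes of cathepsins and legumain, and S100a11 of 16 S100 proteins and annexins.

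In control mice, 1323 genes (8.66%) differed between the same subsets, 561 higher (3.67%) and 762 lower (4.99%) in MHCII+CD11c+ macrophages. Control library 1 or 3 of MHCII+CD11c- left out, 803 and 785 genes were called. Of the 616 genes called after IC, 472 were also called in controls, all in the same direction, which is 76.6% of the IC calls and 35.7% of the control calls. The share was 69.6% (243 of 349) for higher and 85.8% (229 of 267) for lower genes. The sign was the same in 613 of the 616 genes (99.5%), against 69.1% of all genes kept. Median log2 fold changes of the higher genes were 1.89 after IC and 1.46 in controls, and those of the lower genes −1.49 and −1.66, and since the genes were picked on the IC libraries the IC medians are a description. The 3 genes of opposite sign, named after their values were seen, were Saa3, an acute phase protein, Zbtb18, a transcriptional repressor, and St8sia4, a polysialyltransferase. Saa3 had 0.294 and 0.733 against 14.4, 12.8 and 72.6 CPM after IC and 0, 2.04 and 0 against 0, 0.353 and 0 CPM in controls. Zbtb18 had 48.0 and 54.4 against 21.3, 12.6 and 12.4 CPM after IC (log2 fold change 1.73 ± 0.37, adjusted p = 0.00564) and 46.2, 27.1 and 35.9 against 43.9, 25.8 and 47.8 CPM in controls (log2 fold change −0.10 ± 0.33, adjusted p = 0.908). St8sia4 had 119 and 162 against 77.2, 89.6 and 87.2 CPM and 144, 122 and 132 against 159, 115 and 125 CPM.

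**Figure D5:**
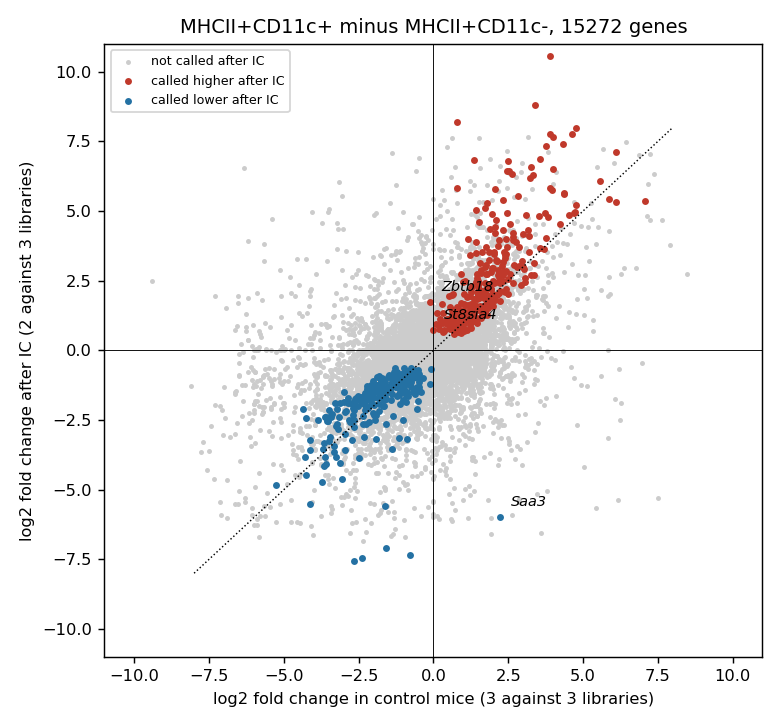
Fitted log2 fold change (MHCII+CD11c+ minus MHCII+CD11c-) of 15272 genes in control mice (horizontal axis, 3 against 3 libraries) and after IC (vertical axis, 2 against 3 libraries), with genes called after IC in red (higher) and blue (lower) and equal values on the dotted line. Of the 616 called genes 613 lie in the quadrants of equal sign, and the 3 others are named.

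Whether the subsets differed by another amount after IC than in controls was tested as an interaction. In edgeR 0 genes were called (lowest adjusted p = 0.315), with 496 genes at an unadjusted p under 0.05. DESeq2 called 2 genes and voom 0. The 2 were Map3k6, a kinase of the stress pathway, with 56.4 and 64.9 against 76.1, 91.3 and 124 CPM after IC and 88.3, 59.1 and 96.8 against 36.3, 33.0 and 38.1 CPM in controls, and Ptp4a3, a phosphatase, with 15.1 and 17.8 against 25.7, 20.6 and 19.8 CPM and 4.25, 2.97 and 4.92 against 35.2, 21.4 and 40.1 CPM. Map3k6 was the higher one in MHCII+CD11c+ controls and Ptp4a3 the lower one, and after IC neither differed between the subsets by the test (adjusted p = 0.218 and 0.748). Without MHCII+CD11c+ control library 2, edgeR called 21 genes, 20 of them with a less negative or more positive difference after IC, among them Igf1, Ctsl, C1qc and Msr1. Igf1, an insulin-like growth factor, was the one with the smallest p there and had 111 and 88.3 against 263, 204 and 146 CPM after IC and 33.0, 314 and 21.6 against 426, 523 and 398 CPM in controls. Genes past the threshold after IC but not in controls, such as Flt3 (controls 1.44 ± 0.56, adjusted p = 0.118), Ccr7 (2.32 ± 0.74, 0.0726), Ciita (0.63 ± 0.34, 0.315) and Ifi27l2a (−0.56 ± 0.29, 0.282), are therefore not shown to depend on IC.

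T and NK cell markers, of which 7 of 14 were in the table, summed to 127 to 154 CPM in MHCII+CD11c+ and 13.3 to 27.0 CPM in MHCII+CD11c- libraries. Nearly all of it came from Cd2 and Il7r. Cd2, an adhesion molecule, had 82.7 and 53.0 against 3.99, 13.6 and 8.26 CPM (log2 fold change 2.97 ± 0.55, adjusted p = 0.00215). Il7r, the receptor for IL-7, had 65.4 and 70.4 against 5.99, 6.59 and 3.58 CPM (log2 fold change 3.64 ± 0.71, adjusted p = 0.00326). Cd3d had 0.588 and 0.733 against 0.665, 4.33 and 1.93 CPM and Lck 0 and 0.183 against 0.665, 0 and 0 CPM. In the other direction, neutrophil markers summed to 26.6 to 31.0 CPM against 70.5 to 128 CPM, B cell and plasma cell markers to 31.1 to 42.1 against 75.2 to 147 CPM and fibroblast markers to 36.1 to 74.8 against 78.2 to 151 CPM, with 0 of 12, 0 of 9 and 0 of 13 kept genes called. Erythroid and skeletal muscle markers summed to at most 23.7 and 16.1 CPM. Endothelial markers summed to 44.7 to 52.8 against 9.31 to 49.4 CPM with Vwf called higher, a call lost without any of the 5 libraries in turn (adjusted p from 0.0529 to 0.418). Mast cell and cartilage markers had overlapping or low sums with 0 called. Markers of LYVE1+CX3CR1+ macrophages summed to 755 to 1204 CPM against 4722 to 6462 CPM, and 3 of 9, Timd4, Fcna and Cd163, were lower, while Lyve1 had 303 and 137 against 2337, 1455 and 2458 CPM (log2 fold change −3.24 ± 1.03, adjusted p = 0.133). The part of these cells in the results was not tested.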

How the data were processed

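Synovial macrophages of mice labelled Fcgr2b-KO were sorted into 3 subsets and sequenced as bulk RNA (SMARTer stranded total RNA pico kit). The authors deposited raw counts per gene. Per the labels and the study's methods, reads were trimmed with Trim Galore, checked with FastQC, aligned to mm10 with HISAT2 and counted with featureCounts, and the gene annotation, versions, use of strand and treatment of multi-mapping reads are not given in the sources used here. 1 column of the count table matched no sample and was not used. Totals ranged from 2301913 to 7248939 counts per library, and floors cover counting error only. The SE of a log2 fold change comes from the quasi-likelihood fit and includes the spread between libraries.

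Counts of all 17 libraries in 6 groups were fitted with edgeR 4.0.16 in R 4.3.3 (filterByExpr with a minimum count of 10, TMM, robust quasi-likelihood fit, 11 residual degrees of freedom), and the IC groups, the control groups and the interaction were contrasted with Benjamini-Hochberg adjustment over 15272 genes. Biological variation between libraries of a group was 45.1% (coefficient of variation). The study itself used DESeq2 with batch removal by sva, without naming the batch, and DESeq2 1.42.0, limma voom 3.58.1 and sva 3.50.0 (5 surrogate variables) were run as alternatives, with other scalings, filters and left-out libraries. Replicates of a group differed by more than counting noise (lowest chi-square per degree of freedom 6.77). Gene symbols were matched to GENCODE M21 on GRCm38 for 22267 genes, and 28 more through RefSeq synonyms (97.5%), and promoter windows came from RefSeq on GRCm38.p6. The fit was tested on simulated counts over 14466 genes, where 53 of 66 genes changed by 3 log2 units and 8 of 67 changed by 1 were called with the right sign in the comparison of the IC groups.

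Named genes were the 15 with the smallest p in each direction whose libraries did not overlap, leaving out predicted genes, and up to 4 called members and the defining members of each of 44 gene lists. Other members given in the text are examples from these lists. Some members are not reported here. The gene lists and members were chosen with earlier results of these data known. Subsets were assigned from the labels, with IAIE read as MHCII+CD11c- after the study's methods.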

Additional observations from a re-analysis of the deposited data

How the results depend on the processing

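All 30 leading genes, among them Itgax, whose call the sort fixed, kept their call and direction in each of the 19 alternatives of the IC comparison. Of 122 called genes named by the rule 57 never lost their call and 65 lost it at least once, 0 reversed, and 11 of 16 named genes that were not called gained a call at least once. Other scalings, no filter, a minimum count of 50, equal depth, the fit without LYVE1+CX3CR1+ libraries and the 8 IC libraries alone gave 558 to 694 called genes in place of 616. DESeq2 called 1026 (513 higher and 513 lower), voom 1783 (966 and 817), surrogate variables 1112 (638 and 474), the 5 libraries of both groups alone 1060 (584 and 476), and an adjusted p under 0.01 left 300 (175 and 125). Leaving out 1 library in turn gave 145 to 610 genes, 101 to 359 higher and 44 to 251 lower, and the share of higher calls rose from 56.7% to 69.7% without MHCII+CD11c+ library 2. A lone MHCII+CD11c+ library was assumed to vary like the other groups. In controls the 1323 calls became 694 at an adjusted p under 0.01, 782 with surrogate variables and 785 to 1450 without 1 library. The interaction gave 2 calls with DESeq2 and 0 to 21 without 1 library. The cause of these shifts was not tested, except that a stricter threshold calls fewer genes by construction.

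Whether replicate numbers pair the libraries could not be settled. Deviations of same-numbered libraries correlated at 0.0659 and 0.00129 after IC and at 0.0986, 0.286 and 0.0796 in controls. Differently numbered libraries correlated at −0.0659 to 0.0540 after IC and at −0.150 to 0.0511 in controls. Every same-numbered control pair had the highest value for both of its libraries. After IC the deviations of the 2 MHCII+CD11c+ libraries mirror each other, so these values cannot decide on pairing. With the replicate block 613 genes were called, 512 of them shared with the 616, the interaction gave 0 calls, and a block on the 4 IC libraries numbered 1 and 2 called 1741 (936 higher and 805 lower). With 2 against 3 libraries and 3878535 to 7045387 counts, differences of 1 log2 unit were seldom called on simulated counts, so a missing call does not show equal levels.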

Other observations

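Some gene families outside the lists stood out among the genes higher in MHCII+CD11c+ macrophages after IC. They were picked after their values were seen, so their counts are a description, to be read beside the 2.29% of all genes called higher. Of 64 histone genes that passed the filter, 11 were higher and 0 lower, with a median log2 fold change of 2.23 (2.07 with genes at 0 in one subset set at their bound) against −0.03 over all genes kept. H2ac4, a core histone gene, had 30.9 and 42.5 against 3.77, 2.06 and 1.10 CPM (log2 fold change 3.95 ± 0.70, adjusted p = 0.00109), and H4c4 had 128 and 131 against 54.8, 28.6 and 44.6 CPM (log2 fold change 1.60 ± 0.33, adjusted p = 0.00394). In both the MHCII+CD11c+ libraries lay above all others, as they did in 54 of the 64 genes, against 19.6% of all genes kept. Many histone genes of the same class are near-identical copies of each other, so reads may have been split between those. Of 11 septins, GTP-binding proteins that form filaments, 4 were higher and 0 lower (median 1.07). Septin6 had 53.2 and 70.7 against 7.76, 4.74 and 3.58 CPM (log2 fold change 3.52 ± 0.61, adjusted p = 0.00155) and Septin11, a more abundant member, 423 and 564 against 215, 201 and 253 CPM (log2 fold change 1.15 ± 0.19, adjusted p = 0.000686). Septin3 had 31.9 and 30.2 against 0.222, 1.44 and 0 CPM (log2 fold change 5.65 ± 1.01, adjusted p = 0.00149).

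Of 9 killer cell lectin-like receptor genes, known from NK cells, 5 were higher, where 2.29% of all genes were, and 0 lower. Klrk1, which encodes NKG2D, had 50.4 and 53.5 against 2.66, 5.56 and 1.38 CPM (log2 fold change 3.99 ± 0.59, adjusted p = 0.000387), and Klrb1b, a member of the NK1.1 family, 60.1 and 55.9 against 0.443, 2.47 and 0 CPM (log2 fold change 5.77 ± 1.01, adjusted p = 0.00481). Klrd1, the CD94 chain, had 14.7 and 16.3 against 0.443, 0 and 0 CPM (log2 fold change 6.43 ± 1.30, adjusted p = 0.00408). In all 3 the subsets did not overlap. Of the listed T and NK cell markers, Cd2 and Il7r were also higher (82.7 and 53.0 against 3.99, 13.6 and 8.26 CPM and 65.4 and 70.4 against 5.99, 6.59 and 3.58 CPM), whereas Cd3d had 0.588 and 0.733 against 0.665, 4.33 and 1.93 CPM and Lck 0 and 0.183 against 0.665, 0 and 0 CPM, and the part of other cells in these values was not tested. Klri1 and Klri2, which are 2 of the 5 higher genes, are close relatives and their counts are uncertain. Of 22 genes of sterol synthesis and its control, 4 were higher and 0 lower (median 0.61). Among them Cyp51, the lanosterol demethylase, had 56.6 and 88.9 against 32.4, 18.1 and 19.5 CPM (log2 fold change 1.64 ± 0.32, adjusted p = 0.00299) and Srebf2, the transcription factor of the pathway, 265 and 319 against 173, 122 and 99.1 CPM (log2 fold change 1.15 ± 0.22, adjusted p = 0.00265). Both were higher in each MHCII+CD11c+ library than in any MHCII+CD11c- library, with library 2 above library 1.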
